A study of Rattus norvegicus with 18 samples.

Results

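The islet hormone genes Ins1, Ins2, Iapp and Gcg, the prohormone convertase genes Pcsk1 and Pcsk2 and the granin genes Chga and Chgb were followed across every array of the series. They were chosen by gene symbol in the normalised signal table and not by their values. All 8 symbols were found among the 13136 distinct symbols of that table, each with 1 probe set, and all 8 passed the filter on low signal that left 9852 genes for testing. The cells were INS1E, a rat beta-cell line that came from an insulinoma, and 18 Affymetrix Rat Gene 1.0 ST arrays were hybridised in 6 groups of 3. The groups were calcitriol with glucose, calcidiol with glucose, glucose, calcitriol, calcidiol and control. Preincubation lasted 72 h and used 10 nM of calcitriol (1,25(OH)2vitamin D, the hormonally active form), 10 nM of calcidiol (25(OH)vitamin D, its circulating precursor, which lacks the hydroxyl group at the first carbon) or neither. All 6 groups were grown at 11 mM glucose. After 60 min in buffer without glucose, the 3 groups named with glucose received 22 mM glucose for 60 min. The other 3 groups received no glucose in these 60 min. Each glucose comparison is thus 22 mM against continued absence of glucose, and not against the 11 mM of culture. The labels call the 3 samples of a group parallel samples and name no separate cultures, so the spread behind each p-value may be technical. A single clonal tumour line stands for beta cells here, and no islet, animal or second line was measured. Signals are on a log2 scale, so that a difference of 1 is a factor of 2, and the signals of different probe sets cannot be set against each other.

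Beta cells make insulin as proinsulin, which is folded in the endoplasmic reticulum and cut inside the maturing secretory granule. The convertases PC1/3, encoded by Pcsk1, and PC2, encoded by Pcsk2, cut proinsulin, pro-islet amyloid polypeptide and proglucagon. Chromogranins, encoded by Chga and Chgb, are acidic proteins of the granule core. Rats carry 2 insulin genes, of which Ins1 arose by retroposition of Ins2 and retains part of its upstream region. Ins1 and Ins2 both lie on chromosome 1 in the annotation deposited with the arrays, Pcsk1 on chromosome 2, Gcg, Pcsk2 and Chgb on chromosome 3, Iapp on chromosome 4 and Chga on chromosome 6. Glucose raises insulin transcription through factors that bind E boxes, such as NeuroD1, and A boxes, such as Pdx1.

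The promoters of the insulin genes and of the glucagon gene are shown because the results turn on these hormones. Each window of 300 bases runs 5' to 3' from 250 bases before to 50 bases after the annotated start of the gene, from RefSeq on the rat build GRCr8, and the table held such a window for 6 of the 8 genes. Capitals mark the E-box letters CATCTG and the A-box core letters TAAT on either strand, so that CAGATG and ATTA are also marked. Neighbouring TAAT and ATTA matches can overlap. The Ins1 window lies at chr1:261185869-261186168 on the plus strand, the Ins2 window at chr1:207273756-207274055 on the minus strand and the Gcg window at chr3:67531484-67531783 on the minus strand.
Ins1: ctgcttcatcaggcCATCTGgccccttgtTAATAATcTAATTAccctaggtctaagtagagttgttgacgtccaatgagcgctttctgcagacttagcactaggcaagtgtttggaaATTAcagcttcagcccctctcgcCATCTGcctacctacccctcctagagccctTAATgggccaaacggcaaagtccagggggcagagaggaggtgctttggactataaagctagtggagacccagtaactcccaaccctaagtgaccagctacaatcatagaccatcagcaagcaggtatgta
Ins2: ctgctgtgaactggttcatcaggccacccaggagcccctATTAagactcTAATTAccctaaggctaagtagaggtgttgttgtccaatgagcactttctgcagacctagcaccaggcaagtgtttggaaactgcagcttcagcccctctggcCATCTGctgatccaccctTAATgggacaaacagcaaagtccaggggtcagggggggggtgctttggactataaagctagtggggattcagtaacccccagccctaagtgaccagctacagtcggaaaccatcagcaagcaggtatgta
Gcg: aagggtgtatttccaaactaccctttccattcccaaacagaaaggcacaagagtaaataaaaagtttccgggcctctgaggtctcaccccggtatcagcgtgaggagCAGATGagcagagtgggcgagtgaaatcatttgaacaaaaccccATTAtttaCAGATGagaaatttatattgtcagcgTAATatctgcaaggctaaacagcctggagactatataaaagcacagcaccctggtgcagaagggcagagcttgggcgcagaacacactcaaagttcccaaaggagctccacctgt
In a global alignment, 250 of the 300 bases of the Ins1 window were identical to those of Ins2, or 83.3%. The Gcg window had 151 bases identical to those of Ins1 in the same kind of alignment. CATCTG was found 2 times in the Ins1 window, starting 236 and 110 bases before the start, 1 time in the Ins2 window, starting 98 bases before it, and 2 times in the Gcg window on the opposite strand. TAAT was found 6 times for Ins1, 4 times for Ins2 and 2 times for Gcg, and Ins1 and Ins2 share a match 80 bases before the start. Of 33469 rat promoter windows of this length, 16.6% held CATCTG and 60.6% held TAAT. A match describes letters in a window and says nothing of binding in these cells.

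Some arrays stood apart from the rest. Txnip, a gene whose transcription follows glucose, was at 12.18 to 12.33 on 7 of the 9 stimulated arrays and at 9.88 to 10.53 on 8 of the 9 unstimulated ones. The array labelled glucose 3 had 10.33 and the array labelled calcidiol with glucose 3 had 10.23, while the array labelled calcitriol 3 had 12.11. Nr4a1, an immediate early gene, was at 8.95 on the array labelled calcidiol 3, against 6.18 to 6.85 on the other unstimulated arrays apart from calcitriol 3, which had 9.33. On the stimulated arrays Nr4a1 was at 9.22 to 10.22, glucose 3 included with 9.84, apart from calcidiol with glucose 3, which had 8.67. The 2 genes thus differ on glucose 3, where Txnip was low and Nr4a1 was not. Casr, the calcium-sensing receptor gene, was at 7.18 to 7.36 on the arrays numbered 1 and 2 of the calcitriol groups. It was at 6.49 on calcitriol 3 and 6.45 on calcitriol with glucose 3, against 6.19 to 6.43 without vitamin D. On calcidiol 3 and calcidiol with glucose 3 it was at 9.52 and 9.55. The labels were kept, and the differences and calls of the 8 genes are given with all 18 arrays and with the 12 arrays numbered 1 and 2. The median signal per array lay between 7.52 and 7.63.

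Markers of the labelled cell type were present. The table held 12 of 14 beta-cell markers, and 11 of them were above the filter, among them Slc2a2, the glucose transporter, at 12.03 to 12.29 and Mafa, an insulin gene activator, at 10.70 to 11.15. Ucn3, a peptide of mature beta cells, had a median of 5.33, and its mean lay below the filter. The hormones that define delta, PP and epsilon cells, Sst, Ppy and Ghrl, were also below the filter, at 5.01 to 5.51, 5.19 to 5.72 and 4.92 to 5.41. Gcg, the defining hormone of alpha cells, was at 10.20 to 12.16, while the alpha-cell transcription factors Irx1 and Irx2 were below the filter. In extracts of many cells, fewer cells that make a transcript and less of it per cell cannot be told apart.

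**Figure D1:**
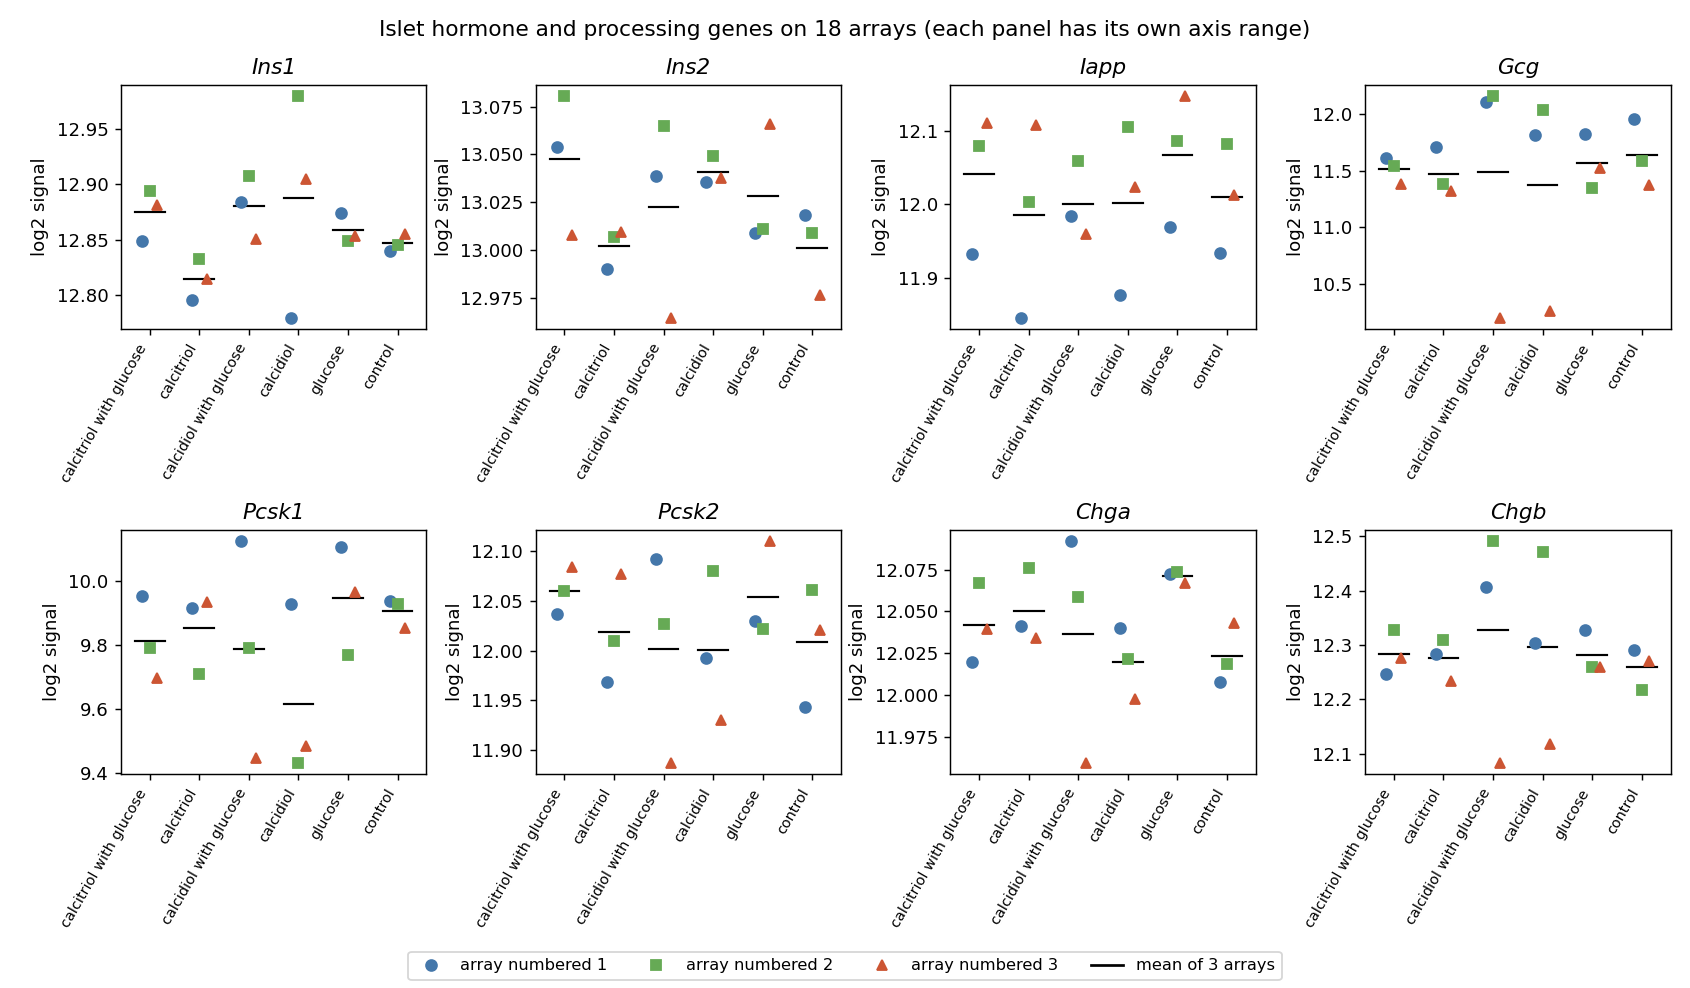
Log2 signal of each gene (vertical axis, with a range of its own in each panel) on the 18 arrays, by group (horizontal axis). Symbols give the array number and bars the mean of 3 arrays. Gcg spans 1.95 log2 units and its lowest values, 10.20 and 10.27, are on the arrays numbered 3 of the calcidiol groups, while Ins2 spans 0.12.

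Ins1 and Ins2, the insulin genes, lay at the top of the signal range on every array. Ins2 had the highest signal of the named genes on 17 of 18 arrays, and Ins1 lay 0.20 to 0.30 below the highest probe set of its array. These are places on the signal scale and do not rank transcript amounts. How far signals so near the top are compressed was not tested. Ins1 read 12.85, 12.89 and 12.88 on the calcitriol with glucose arrays, 12.88, 12.91 and 12.85 on the calcidiol with glucose arrays and 12.87, 12.85 and 12.85 on the glucose arrays. It read 12.80, 12.83 and 12.82 on the calcitriol arrays, 12.78, 12.98 and 12.90 on the calcidiol arrays and 12.84, 12.85 and 12.86 on the control arrays. The 18 values span 0.20 log2 units, and both the lowest and the highest come from the calcidiol group. Ins2 read 13.05, 13.08 and 13.01 on the calcitriol with glucose arrays, 13.04, 13.06 and 12.96 on the calcidiol with glucose arrays and 13.01, 13.01 and 13.07 on the glucose arrays. It read 12.99, 13.01 and 13.01 on the calcitriol arrays, 13.04, 13.05 and 13.04 on the calcidiol arrays and 13.02, 13.01 and 12.98 on the control arrays. The Ins2 values span 0.12, and the stimulated arrays hold both the highest and the lowest of them. The residual SD of Ins2 within groups, 0.0309, was lower than that of all but 0.132% of the tested genes, whose median SD was 0.111, and that of Ins1, 0.0450, lay at percentile 1.54. The transcripts of the 2 genes are near-identical copies over much of their length, and how far either probe set reads the other's transcript was not tested.

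Iapp, which encodes the peptide that is secreted with insulin and forms islet amyloid in some species, was at 11.85 to 12.15. It read 11.93, 12.08 and 12.11 on the calcitriol with glucose arrays, 11.98, 12.06 and 11.96 on the calcidiol with glucose arrays, and 11.97, 12.09 and 12.15 on the glucose arrays. It read 11.85, 12.004 and 12.11 on the calcitriol arrays, 11.88, 12.11 and 12.02 on the calcidiol arrays and 11.93, 12.08 and 12.01 on the control arrays. All 6 arrays numbered 1 lay at or below 11.98, under all 6 numbered 2, which began at 12.004. The 6 arrays numbered 3, at 11.96 to 12.15, overlapped both. Of the 8 genes only Iapp had this order, and its share over all tested genes is not reported here.

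Gcg, the glucagon gene, varied more than 99.7% of the tested genes, with a residual SD of 0.629. It read 11.61, 11.54 and 11.38 on the calcitriol with glucose arrays, 12.10, 12.16 and 10.20 on the calcidiol with glucose arrays and 11.82, 11.35 and 11.52 on the glucose arrays. It read 11.71, 11.38 and 11.32 on the calcitriol arrays, 11.82, 12.04 and 10.27 on the calcidiol arrays and 11.96, 11.58 and 11.37 on the control arrays. In each calcidiol group the array numbered 3 thus lay more than 1 log2 unit below the lowest of the other 16 arrays. The calcidiol arrays numbered 1 and 2 were at 11.82 and 12.04, against 11.96 on control 1 and 11.82 on glucose 1. The arrays numbered 1 and 2 of the calcidiol with glucose group had the highest Gcg signals of all 18.

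Pcsk1, which encodes the convertase PC1/3, had a residual SD at percentile 89.8. It read 9.95, 9.79 and 9.70 on the calcitriol with glucose arrays, 10.12, 9.79 and 9.45 on the calcidiol with glucose arrays and 10.11, 9.77 and 9.96 on the glucose arrays. It read 9.92, 9.71 and 9.93 on the calcitriol arrays, 9.93, 9.43 and 9.49 on the calcidiol arrays and 9.94, 9.93 and 9.85 on the control arrays. The 3 lowest values, 9.43, 9.45 and 9.49, all come from calcidiol groups, while the array numbered 1 was the highest of its group in 5 of 6 groups. The share of all tested genes with either pattern is not reported here. Pcsk2, which encodes PC2, had a residual SD at percentile 10.6. It read 12.04, 12.06 and 12.08 on the calcitriol with glucose arrays, 12.09, 12.03 and 11.89 on the calcidiol with glucose arrays and 12.03, 12.02 and 12.11 on the glucose arrays. It read 11.97, 12.01 and 12.08 on the calcitriol arrays, 11.99, 12.08 and 11.93 on the calcidiol arrays and 11.94, 12.06 and 12.02 on the control arrays. In each of the 9 comparisons between groups of 3 the Pcsk2 values overlap.

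Chga, which encodes chromogranin A, was at 11.96 to 12.09, and its residual SD was the second smallest of the 8 genes, at percentile 0.233. It read 12.02, 12.07 and 12.04 on the calcitriol with glucose arrays, 12.09, 12.06 and 11.96 on the calcidiol with glucose arrays, and 12.07 on each of the glucose arrays. It read 12.04, 12.08 and 12.03 on the calcitriol arrays, 12.04, 12.02 and 11.998 on the calcidiol arrays, and 12.01, 12.02 and 12.04 on the control arrays. The lowest of the glucose arrays, at 12.07, lies above the highest of the control arrays, at 12.04. Chgb, which encodes chromogranin B, had a residual SD at percentile 55.7. It read 12.25, 12.33 and 12.28 on the calcitriol with glucose arrays, 12.41, 12.49 and 12.08 on the calcidiol with glucose arrays and 12.33, 12.26 and 12.26 on the glucose arrays. It read 12.28, 12.31 and 12.23 on the calcitriol arrays, 12.30, 12.47 and 12.12 on the calcidiol arrays and 12.29, 12.22 and 12.27 on the control arrays. Both the highest and the lowest Chgb signals come from the calcidiol groups, as for Gcg.

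Glucose stimulation for 60 min did not move any of the 8 genes past the threshold. Averaged over the 3 pretreatments, the 9 stimulated arrays had a mean Ins1 signal of 12.87 ± 0.022 and the 9 unstimulated arrays 12.85 ± 0.060 (SD). The difference was 0.02 with a 95% interval from -0.04 to 0.08, which is a fold difference of 0.971 to 1.06 (limma, adjusted p = 0.756). Ins2 averaged 13.03 ± 0.037 on the stimulated and 13.01 ± 0.023 on the unstimulated arrays (SD, n = 9 each), with a difference of 0.02 and an interval from -0.04 to 0.07 (limma, adjusted p = 0.773). For Ins2 the interval corresponds to a fold difference of 0.974 to 1.05. For Gcg the interval was far wider, from -0.53 to 0.58, or a fold difference of 0.694 to 1.495. All 8 differences were positive, between 0.02 and 0.06, with a median of 0.02 against -0.03 for all 9852 tested genes. The small Ins2 difference turned to -0.01 under quantile normalization. That step gives the highest gene of every array the same value. Ins2 was the highest named gene on 17 of 18 arrays, so this sign cannot bear on its response to glucose. Without calcidiol array 3 the differences of Gcg and Chgb turned to -0.16 and -0.01. With the 12 arrays all 8 differences were again positive, Ins1 at 0.03 (interval -0.07 to 0.13), Ins2 at 0.02 (interval -0.06 to 0.11), Gcg at 0.01 (interval -0.20 to 0.23) and Pcsk1 the highest at 0.11 (interval -0.11 to 0.33). In this comparison 332 genes, or 3.37% of those tested, passed with 18 arrays, 9.94% passed with the 12 arrays numbered 1 and 2, and 941 genes passed with the array number as a block. None of the 8 was among these sets, with adjusted p from 0.716 to 0.971 over the 18 arrays (limma). None had an unadjusted p under 0.05 with 18 arrays, against 19.0% of all tested genes.

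**Figure D2:**
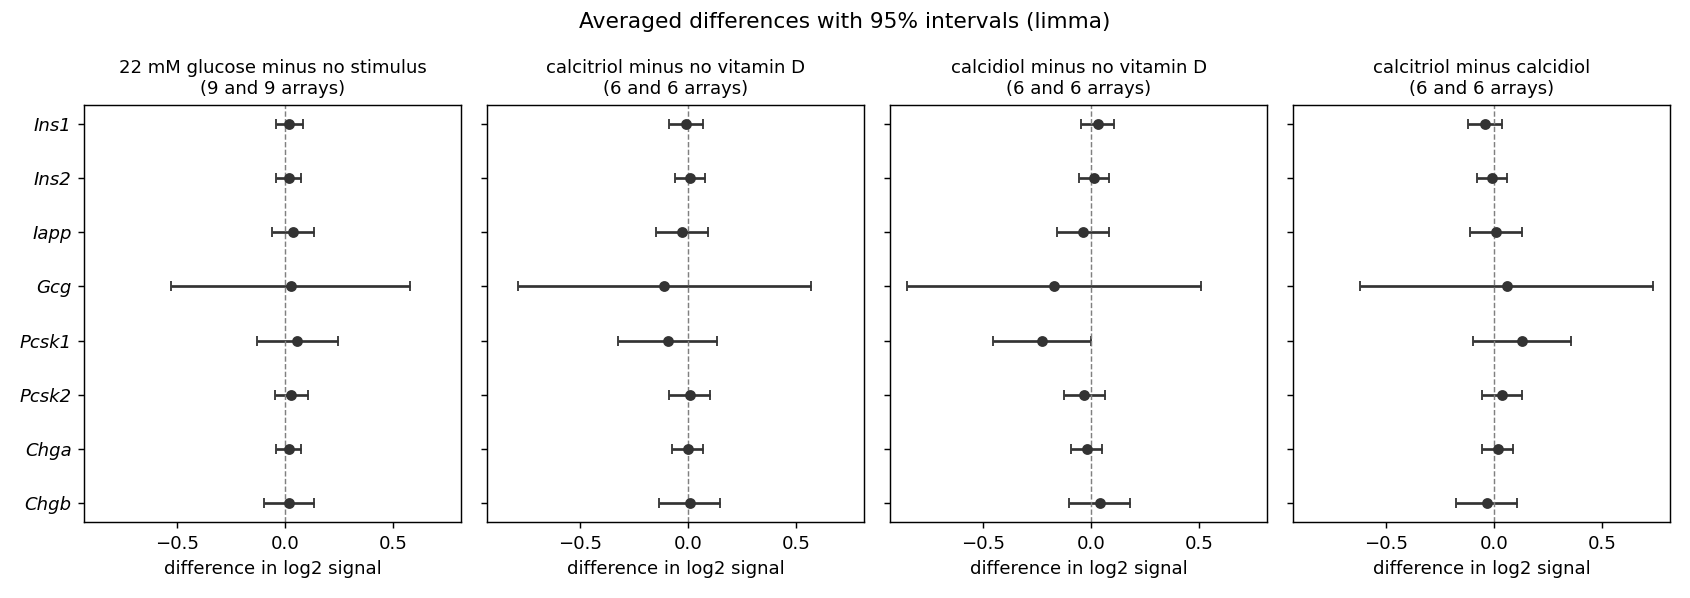
Difference in log2 signal (horizontal axis) for each gene (vertical axis), with 95% intervals from the limma model of 18 arrays, for glucose against no stimulus, each vitamin D form against none, and calcitriol against calcidiol. All intervals include 0, and the Gcg intervals, such as -0.85 to 0.51 for calcidiol, are the widest in each panel.

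Within the pretreatments none of the 8 genes passed either, and with 18 arrays 0 of all tested genes passed in these comparisons (limma). Without vitamin D, Chga read 12.07 on all 3 glucose arrays and 12.01, 12.02 and 12.04 on the control arrays, so that the groups did not overlap, with a difference of 0.05 (interval -0.05 to 0.15; limma, adjusted p = 0.999). It was 1 of 8 genes whose groups of 3 did not overlap, and 16.2% of all tested genes had that property in this comparison. After calcitriol, Ins1 on the 3 stimulated arrays lay above the 3 unstimulated ones, and the difference was 0.06 (interval -0.05 to 0.17; limma, adjusted p = 0.724). Again 1 of 8 genes did not overlap, against 15.1% of all tested genes. After calcidiol none of the 8 separated the groups, against 5.12% of all tested genes. With the arrays numbered 1 and 2, 0 of the 8 passed in these comparisons, against 1.06% of all tested genes without vitamin D, 1.89% after calcitriol and 1.35% after calcidiol. In that fit Chga without vitamin D differed by 0.06 (interval -0.08 to 0.20) and Ins1 after calcitriol by 0.06 (interval -0.12 to 0.23). The tests of whether either vitamin D form changed the glucose response gave Ins1 0.05 (interval -0.11 to 0.20) for calcitriol and -0.02 (interval -0.17 to 0.14) for calcidiol, and none of the 8 genes passed (limma, adjusted p = 1.00 each). Of all tested genes 0 passed in either of these tests, with 18 or with 12 arrays (limma). With the 12 arrays the Ins1 values were 0.04 (interval -0.21 to 0.28) and -0.003 (interval -0.25 to 0.24). These contrasts share control arrays and are not independent of one another.

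Calcitriol, the active form, gave no difference past the threshold in any of the 8 genes. Averaged over both glucose states, the calcitriol arrays had a mean Ins1 signal of 12.84 ± 0.038 and the arrays without vitamin D 12.85 ± 0.012 (SD, n = 6 each), a difference of -0.01 (interval -0.09 to 0.07). Gcg averaged 11.49 ± 0.154 after calcitriol and 11.60 ± 0.244 without vitamin D, a difference of -0.11 (interval -0.79 to 0.57). Pcsk1 averaged 9.83 ± 0.116 after calcitriol and 9.93 ± 0.113 without vitamin D, a difference of -0.09 (interval -0.32 to 0.13). The adjusted p of all 8 was 1.00 (limma), 3 differences were positive and 5 negative. Without glucose, Ins1 after calcitriol lay below all control arrays, the only one of the 8 to separate the groups, against 7.78% of all tested genes. With glucose, the highest Chga value after calcitriol was 12.0669 and the lowest on the glucose arrays 12.0670, so that the groups only just failed to overlap, again 1 of 8, against 4.09%. Of all tested genes 0 passed with 18 arrays in the averaged comparison or within either glucose state (limma), and 60 had an unadjusted p under 0.05 in the averaged comparison. With the arrays numbered 1 and 2, 0 of the 8 passed, against 0.0305% of all tested genes in the averaged comparison, 0.0203% without glucose and 0.0203% with glucose. The averaged differences in that fit were -0.01 for Ins1 (interval -0.13 to 0.11), -0.12 for Gcg (interval -0.38 to 0.15) and -0.09 for Pcsk1 (interval -0.36 to 0.18).

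Calcidiol gave the smallest p of the 120 tests, 8 genes in 15 comparisons, without passing the threshold. Pcsk1 averaged 9.70 ± 0.290 after calcidiol and 9.93 ± 0.113 without vitamin D (SD, n = 6 each), over both glucose states. The difference was -0.22 (interval -0.45 to 0.003), or a fold of 0.856, with an unadjusted p of 0.0527 and an adjusted p of 0.751 (limma). With the array number as a block the interval was -0.39 to -0.06, with an unadjusted p of 0.0123 and an adjusted p of 0.288. The difference was -0.12 without the arrays numbered 3 (interval -0.39 to 0.15), and it kept its sign under all 33 alternatives. Among arrays of the same number, Pcsk1 differed between calcidiol and control by -0.01, -0.49 and -0.37 for numbers 1, 2 and 3, and between calcidiol with glucose and glucose by 0.02, 0.02 and -0.52. Ins2 without glucose was the only gene of the 8 to separate the calcidiol and control groups, with 13.04, 13.05 and 13.04 after calcidiol and 13.02, 13.01 and 12.98 in control cells. That was 1 of 8 genes, against 7.04% of all tested genes, with a difference of 0.04 (interval -0.06 to 0.14; limma, adjusted p = 1.00), and 0.03 (interval -0.11 to 0.17) with the 12 arrays. With glucose, none of the 8 separated the groups, against 7.36%. Of all tested genes 0 passed for calcidiol with 18 or with 12 arrays (limma), and 660 had an unadjusted p under 0.05 with 18 arrays in the averaged comparison. None of the 120 tests of the 8 genes had an unadjusted p under 0.05 with 18 arrays and no block (limma). Of all tested genes 0.325% to 19.0% had such a p, by comparison. With the block 3 of the 120 tests did, all of Pcsk1, and 7 did without the arrays numbered 3, all of Gcg or Chgb. The share of all tested genes with such a p in these fits is not reported here.

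The sign of the calcidiol difference in Gcg depended on the arrays numbered 3. With 18 arrays Gcg averaged 11.43 ± 0.933 after calcidiol and 11.60 ± 0.244 without vitamin D, a difference of -0.17 (interval -0.85 to 0.51; limma, adjusted p = 0.942). Without the arrays numbered 3 the difference was 0.35 (interval 0.08 to 0.62), with an unadjusted p of 0.0151 and an adjusted p of 0.866 (limma). By number, Gcg differed between calcidiol and control by -0.14, 0.46 and -1.11, and between calcidiol with glucose and glucose by 0.28, 0.81 and -1.32. For Chgb the fit of 12 arrays gave a difference of 0.14 (interval 0.02 to 0.27) and an adjusted p of 0.866, against 0.04 (interval -0.10 to 0.18) with 18 arrays.

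The 2 vitamin D forms, given at the same dose and for the same time, were set against each other once over both glucose states and once within each state, 24 tests of the 8 genes in all. None passed, and of all tested genes 0 passed with 18 arrays in these comparisons. The p adjusted over all tested genes was 0.997 for each of the 8 in the averaged comparison, 1.00 without glucose and 0.999 with glucose (limma). Calcitriol minus calcidiol was -0.04 for Ins1 (interval -0.12 to 0.04), -0.01 for Ins2 (interval -0.08 to 0.06), 0.01 for Iapp (interval -0.11 to 0.13) and 0.13 for Pcsk1 (interval -0.10 to 0.36). For Gcg it was 0.06 with an interval from -0.62 to 0.74, which reaches a 1.67-fold difference. Without the arrays numbered 3 the Gcg difference was -0.47 (interval -0.74 to -0.20; unadjusted p = 0.00287, limma, adjusted p = 0.496), while those of Ins1, Ins2, Iapp and Pcsk1 were -0.04, -0.01, -0.04 and 0.02. Ins2 without glucose was lower on every calcitriol array than on every calcidiol array, 1 of 8 genes, against 4.23% of all tested genes, and with glucose none of the 8 separated the forms, against 4.69%. With the arrays numbered 1 and 2, 0 of the 8 passed, against 0.0305% of all tested genes in the averaged comparison, 0.0102% without glucose and 0.0203% with glucose.

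Gcg, Chgb, Chga and Pcsk2 had their 2 lowest values of the 18 arrays on the same 2 arrays, calcidiol with glucose 3 and calcidiol 3. Chgb read 12.08 and 12.12 there, against 12.22 to 12.49 on the other 16 arrays. Pcsk2 read 11.89 and 11.93, against 11.94 to 12.11, and Chga read 11.96 and 11.998, against 12.01 to 12.09. For Pcsk2 and Chga the step to the next array was only 0.01, whereas for Gcg it was 1.05. These 2 arrays were the 2 lowest for 6.15% of all tested genes and the 2 highest for 7.21%, and no other tested gene had a step below the other 16 arrays as large as that of Gcg. Ins1, Ins2, Iapp and Pcsk1 did not have these 2 arrays as their 2 lowest, although the lowest Ins2 value, 12.96, was on calcidiol with glucose 3. The arrays were singled out after their values were seen, and the counts are a description with no test.

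**Figure D3:**
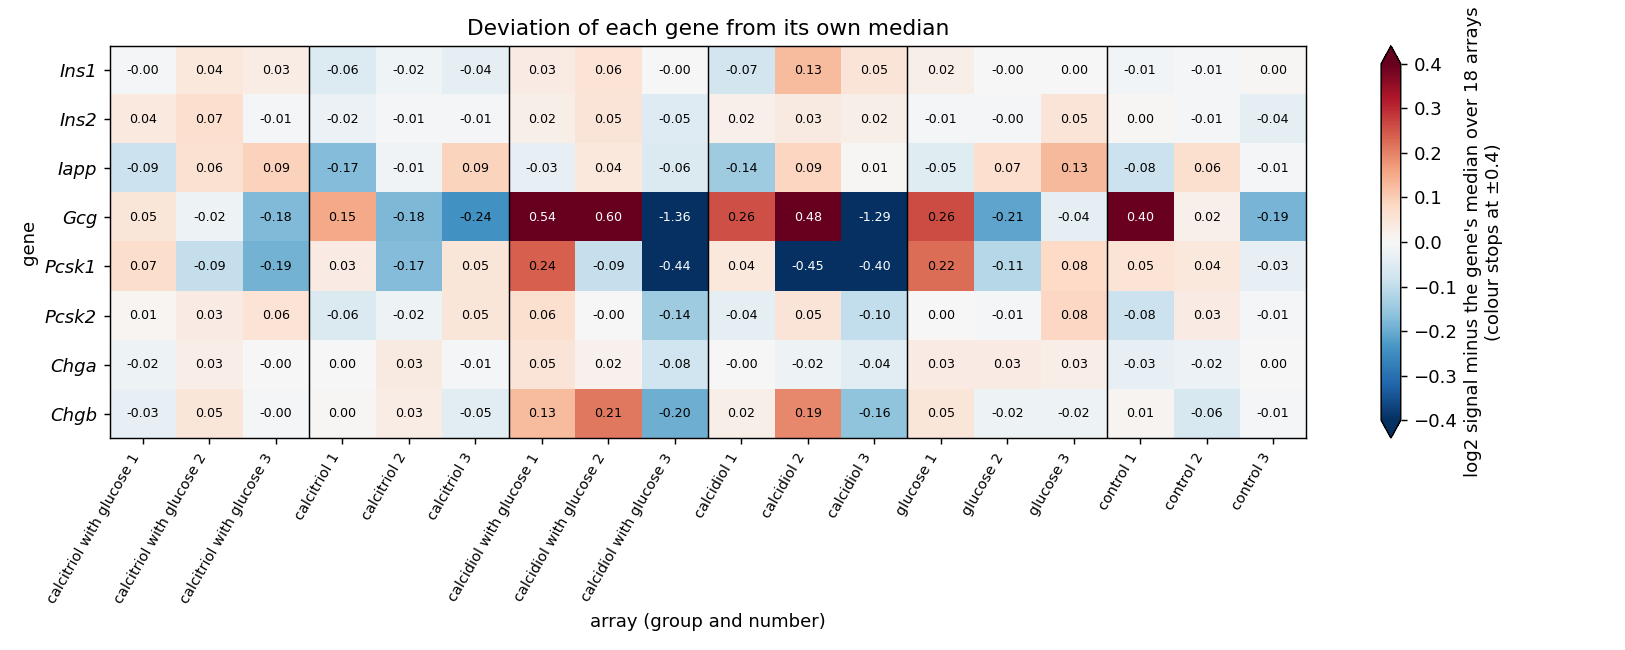
Log2 signal of each gene (rows) on each array (columns, by group and number) minus the gene's median over the 18 arrays. Gcg stood at -1.36 and -1.29 on the arrays numbered 3 of the calcidiol groups, where Pcsk2, Chga and Chgb also had their 2 lowest values. Ins2 was lowest on calcidiol with glucose 3, at 12.96, but not on calcidiol 3, at 13.04.

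Other hormone and identity genes on those 2 arrays did not move one way. Ucn3 was at 8.62 on calcidiol with glucose 3 and 8.68 on calcidiol 3, against 5.04 to 6.99 on the other 16 arrays. Cck, the cholecystokinin gene, was at 6.87 and 6.79 there, against 7.30 to 8.06. Npy, the neuropeptide Y gene, was at 12.19 and 12.26, against 11.66 to 12.14. Of the insulin gene regulators, Mafa, at 10.70 and 10.74 against 10.86 to 11.15, and Nkx2-2, at 9.25 and 9.33 against 9.45 to 9.86, were lowest there. Most of the other tested regulators, Neurod1, Nkx6-1, Isl1, Foxa2, Insm1, Rfx6 and Tcf3, lay within the range of the other 16 arrays on both. Pax6 was lowest on calcidiol with glucose 3 only and Ptbp1 on calcidiol 3 only. Casr, the calcium-sensing receptor gene, was at 9.55 and 9.52 against 6.19 to 7.36. Of the alpha-cell list, Ttr was at 7.20 and 7.38 within a range of 7.20 to 8.23 and Gc at 11.54 and 11.61 within 11.49 to 11.79. The mean of the 7 alpha-cell markers was 7.54 and 7.45 on these arrays, against 7.63 to 7.93 on the other 16, and without Gcg it was 7.10 and 6.99, against 7.01 to 7.24. The mean of the 12 beta-cell markers was 10.87 and 10.89, against 10.57 to 10.82. Ucn3 alone put it above the other arrays, and without Ucn3 it was 11.07 and 11.09, against 11.07 to 11.26. The 2 duct markers in the table averaged 9.83 and 9.78, against 8.52 to 9.32, of which Krt7 was at 10.88 and 10.86. The part of these genes and arrays in the results for Gcg and Chgb was not tested.

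Across the 18 arrays Gcg and Chgb followed each other most closely of the 28 pairs of these genes, with a Pearson r of 0.87. Ins1 and Ins2 had an r of 0.42, and Gcg had an r of 0.08 with Ins1 and 0.41 with Ins2. Among the genes most like Gcg over the same arrays were Esyt3 with r = 0.95 and Cd200 with r = 0.95. Those most like Chgb were Sel1l3 and Cxadrl1, each with r = 0.90, and Cck with r = 0.89. Maob was most like Pcsk1 (r = 0.90), Slc25a23 most like Iapp (r = 0.91), Rpl39 most like Ins1 (r = 0.83) and Ppap2a most like Pcsk2 (r = 0.78). The points share arrays and array numbers, and for Gcg and Chgb the 2 low arrays carry much of the range, so these values are descriptions over 18 arrays.

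The other genes of prohormone processing and of the granule, a list of 28, held no gene that passed. The table held 27 of them, of which 24 were tested, and 0 passed in any of the 15 comparisons (limma), with 18 arrays, with 12 arrays or with the array number as a block, while 2 of the 24 had an unadjusted p under 0.05 for glucose averaged over pretreatments, against 19.0% of all tested genes. For glucose averaged over pretreatments 18 were higher and 6 lower, with a median difference of 0.03 against -0.03 over all tested genes. Cpd, a carboxypeptidase, differed by 0.08 ± 0.032 (SE) with an unadjusted p of 0.0222 and an adjusted p of 0.174, and Pcsk7, another convertase, differed by -0.10 ± 0.049 (limma, adjusted p = 0.254). Pam, which amidates peptide ends, differed by 0.05 (limma, adjusted p = 0.507), Scg5, the chaperone of PC2, by 0.01 and Pcsk1n, whose product inhibits PC1/3, by 0.002. Slc30a8, the granule zinc transporter, was at 11.94 to 12.07 on all arrays with a glucose difference of -0.001. Of 18 other islet and neuroendocrine peptide genes 3 were tested, Npy, Cck and Adm, and 0 passed in any comparison (limma), with 1 at an unadjusted p under 0.05 for calcidiol averaged over glucose states, against 6.70% of all tested genes. Cpe, the carboxypeptidase that trims the cut peptides, was not analysed here.

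Some regulators of the insulin gene passed for glucose with 18 arrays, where Ins1 and Ins2 did not. Of 11 tested, 4 passed in the average over pretreatments, 1 higher and 3 lower, against 3.37% of all tested genes. Foxa2, a forkhead factor, was higher by 0.23 ± 0.052 (SE; limma, adjusted p = 0.0332). Isl1, a LIM homeodomain factor of islet cells, differed by -0.39 ± 0.079 (adjusted p = 0.0228), Insm1, a zinc-finger factor of endocrine cells, by -0.30 ± 0.068 (adjusted p = 0.0328), and Neurod1, which binds the insulin E box, by -0.16 ± 0.039 (adjusted p = 0.0392). With the 12 arrays numbered 1 and 2 the same 4 passed, Isl1 at -0.54, and Nkx6-1 and Pax6 also passed at -0.30 and -0.21. With 18 arrays Nkx6-1 had an adjusted p of 0.0528, and 0.0342 with the array number as a block. These calls depended on the arrays used. On leaving out each of the 18 arrays in turn Isl1 passed in 10 fits, Insm1 in 7, Foxa2 in 6 and Neurod1 in 6, with adjusted p of at most 0.0961 in the others, and none passed without all arrays numbered 1 (adjusted p from 0.742 to 0.748) or without all numbered 2 (0.575 for each). Under median centring Neurod1 had an adjusted p of 0.0658. The sign of each of the 4 was the same in 31 of 31 alternatives. Mafa differed by 0.06 ± 0.053 (limma, adjusted p = 0.558). No regulator passed in the averaged comparisons of either vitamin D form. Pdx1 and Glis3 were not analysed here.

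**Figure D4:**
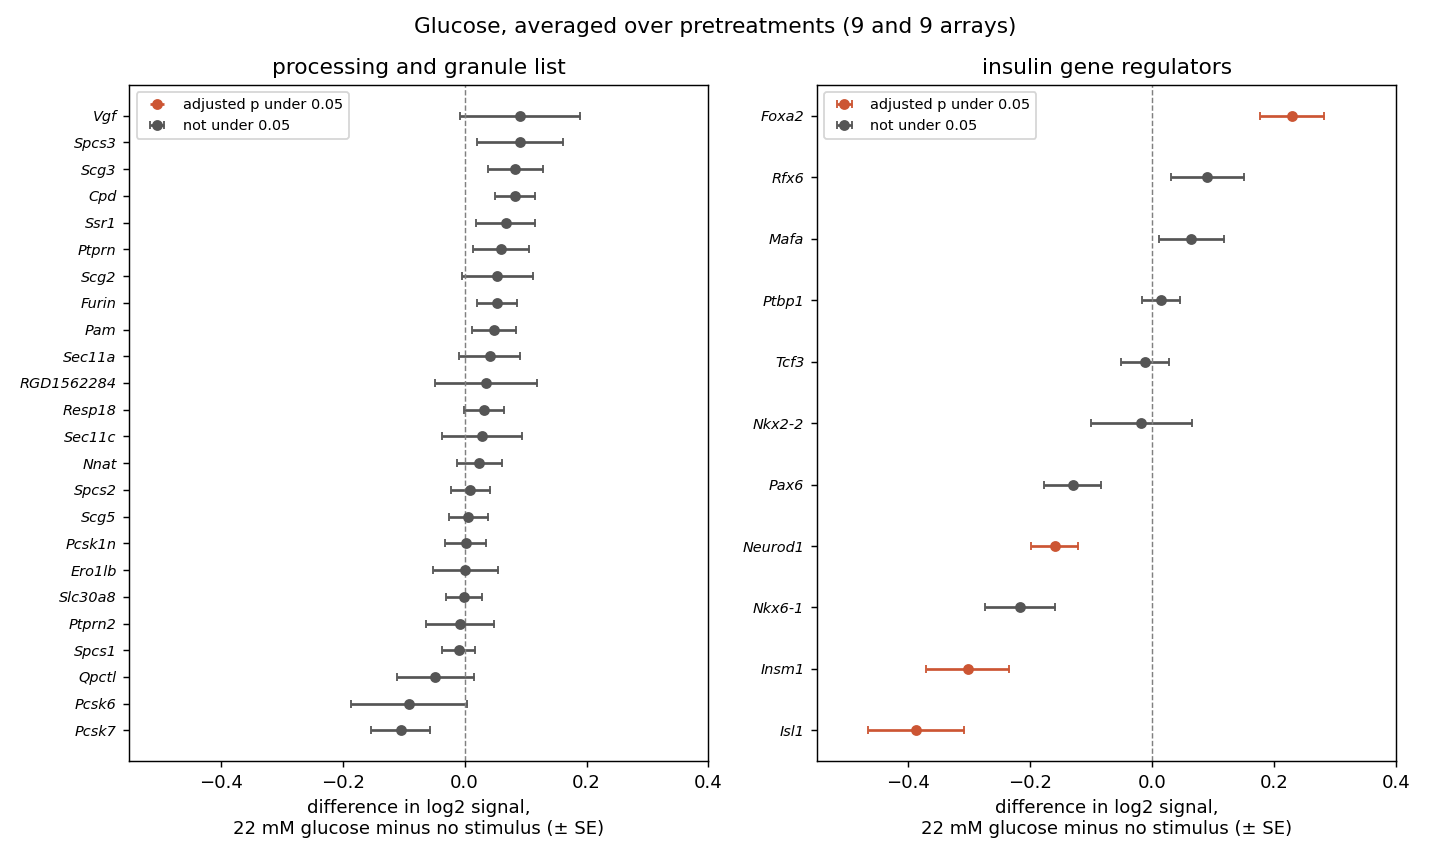
Difference in log2 signal between the 9 stimulated and the 9 unstimulated arrays (horizontal axis) for the tested genes of the processing and granule list and of the insulin gene regulators (vertical axis), with standard errors. Foxa2 at 0.23 and Isl1, Insm1 and Neurod1 at -0.39, -0.30 and -0.16 passed an adjusted p of 0.05, and no gene of the processing list did. The gene that the file calls RGD1562284 is the glutaminyl-peptide cyclotransferase gene, listed as Qpct.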

How the data were processed

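Total RNA, 150 ng per sample, was hybridised to 1 array per sample, per the labels. What the authors deposited are normalised log2 signals. RMA and Partek appear in the submitters' processing notes with no role, order, version or settings. The attached table (17017 probe sets) and the series matrix (29214) hold identical values for shared probe sets. Symbols came from the attached table. For a gene with several probe sets the one with the highest mean was used, and the 25% of genes with the lowest mean signal were not tested.

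One limma model of the 6 groups (limma 3.58.1, R 4.3.3) gave all 15 comparisons, with 12 residual degrees of freedom and Benjamini-Hochberg adjustment over 9852 genes at 0.05. The code was tested on simulated data. Tables, promoter alignments and plots were made with pandas 2.3.3, Biopython 1.88, matplotlib 3.10.9 and numpy 2.4.6 in Python 3.11.15. Correlations are Pearson r over the deposited values. The named genes are the 8 genes in full, the listed genes that passed or that the text describes by role, and those most correlated with each of the 8; some genes that this rule or the lists give are not reported here. The genes and lists were chosen with earlier results of these data known.

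Arrays carry a number from 1 to 3 in each group. Same-numbered arrays deviated together from their group means, with every correlation over 0.1, in 8 of 9 comparisons; the lowest was 0.0533. The pairing is thus a hint from the values, and the fit with the number as a block was an alternative. The others were the filter, normalisation, probe set choice, array weights, moderation, a fit of the groups compared alone, and leaving out arrays; the fit of arrays numbered 1 and 2 with the block was added after seeing the data.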

Additional observations from a re-analysis of the deposited data

Results flagged for a closer look

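Of 40 sets of 6 to 9 arrays checked for a sample far from the others, 4 held one, and chance alone flags about 1 in 20 independent sets. These sets share arrays and pool several groups, so their count cannot be weighed against that rate. Gcg was at 10.20 on the array labelled calcidiol with glucose 3, against 11.35 on the next lowest of the 9 stimulated arrays, and at 10.27 on the array labelled calcidiol 3, against 11.32 on the next lowest of the 9 unstimulated arrays. Pcsk2 was at 11.89 on calcidiol with glucose 3, against 12.02 on the next lowest stimulated array. Ins2 was at 12.96 on the same array, against 13.04 on the next lowest of the 6 calcidiol arrays. All 4 values come from the 2 arrays numbered 3 of the calcidiol groups, 3 of them from calcidiol with glucose 3. The Txnip signal of that array, 10.23, was within the range of the unstimulated arrays. Its Nr4a1 signal, 8.67, was above the 6.18 to 6.85 of the unstimulated arrays other than calcitriol 3 and calcidiol 3. Txnip on calcidiol 3 was at 10.44. The cause was not tested.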

How the results depend on the processing

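None of the 8 genes passed in any of the 15 comparisons under any of the 33 alternatives, and the smallest adjusted p was 0.162, for Gcg between calcitriol and calcidiol in the 12 arrays numbered 1 and 2 with the replicate block. For Neurod1 the adjusted p under median centring was 0.0658. The count of all genes called moved more, and the cause was not tested. For glucose averaged over pretreatments, 332 with 18 arrays, it was 201 under the stricter filter, 1171 with array weights (whose estimation stopped before it converged), 941 with the replicate block, 1564 with arrays numbered 1 and 2 and the block, and 0 to 979 on leaving out arrays. It was 806 without calcidiol with glucose array 3, 529 without calcitriol array 3 and 30 without calcitriol array 2. In the other comparisons it was 0 with 18 arrays. For glucose without vitamin D it was 1051 with weights, 175 with 12 arrays and the block, 12 in a fit of the 2 groups alone and 0 to 104 on leaving out arrays. For glucose after calcitriol these were 373 with weights, 447 with 12 arrays and the block and 0 to 186 on leaving out arrays, and for glucose after calcidiol 241 and 0 to 133. For calcitriol the 12 arrays with the block gave 9 averaged, 2 without glucose and 2 with glucose, and leaving out arrays gave 0 to 3, 0 to 2 and 0 to 2. For calcidiol averaged, leaving out arrays gave 0 to 1. For calcitriol against calcidiol the 12 arrays with the block gave 21 averaged, 2 without glucose and 3 with glucose, and leaving out arrays gave 0 to 3, 0 to 1 and 0 to 2. The 3 samples per group limit the precision, and signals near the top of the scale, as for Ins1 and Ins2, may understate differences, which was not tested.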
